A study of Oryza sativa Japonica Group with 8 samples.

Results

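The circadian clock genes of rice were followed in RNA of the pistil, the female organ of the flower. They are 9 loci of the 38726 features in the deposited count table, taken by their RAP locus identifiers: LHY (Os08g0157600), PRR73 (Os03g0284100), PRR37 (Os07g0695100), PRR95 (Os09g0532400), PRR59 (Os11g0157600), GI (Os01g0182600), PRR1 (Os02g0618200), PCL1 (Os01g0971800) and ELF3 (Os06g0142600). The first 2 digits of an identifier give the chromosome, so GI and PCL1 lie on chromosome 1 and the others on chromosomes 2, 3, 6, 7, 8, 9 and 11. All 9 passed the filter on low counts in every comparison.

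The plants were untreated wild-type Oryza sativa ssp. japonica, cultivar Nipponbare, at the heading stage, grown in climate chambers with 10 h of light at 30 °C and 14 h of dark at 25 °C. The groups were 3 libraries of whole-cell RNA from the upper part of the pistil, 3 of whole-cell RNA from the lower part and 2 of RNA from nuclei sorted from pistils. The labels state neither where the pistil was divided nor the hour of collection, and do not say whether each replicate is its own set of plants. The p-values therefore reflect the spread among these libraries, which may be technical. Libraries of upper and lower part with the same replicate number deviated together across genes and may share a collection.

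The plant clock is a loop of transcription factors that repress each other in turn through the day. In Arabidopsis the MYB factor LHY is made around dawn and represses the evening genes. The PRR proteins follow one another from morning to evening and repress LHY. ELF3 and PCL1 (called LUX in Arabidopsis) belong to an evening complex that represses genes at night. In rice, the clock also sets heading date, in which PRR37 and GI take part. Transcripts of these genes rise and fall with the hour, and here the hour of collection cannot be told apart from the replicate number.

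Total counts were 24796307 to 35518142 in the whole-cell libraries and 10857036 and 9268151 in the nuclei, and the clock genes had from 83 counts (LHY, nuclei replicate 1) to 36835 (GI, lower replicate 1). Lower replicate 3 stood apart from its group, since its mean Spearman correlation across genes was 0.919 to the upper libraries but 0.878 to the rest of its own group. All 4 loci taken as pistil markers were present in every whole-cell library, between 50.7 and 1014 CPM (counts scaled to a common library size, here with TMM over all 8 libraries). The 3 loci taken as lodicule and stamen markers summed to between 789 and 1150 CPM in the upper part, 328 and 996 CPM in the lower part and 244 and 489 CPM in nuclei. The 996 CPM was that of lower replicate 3. In such bulk samples, fewer cells of a type and less RNA per cell cannot be told apart. CPM is not scaled to gene length, so levels are compared between libraries and not between genes.

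**Figure D1:**
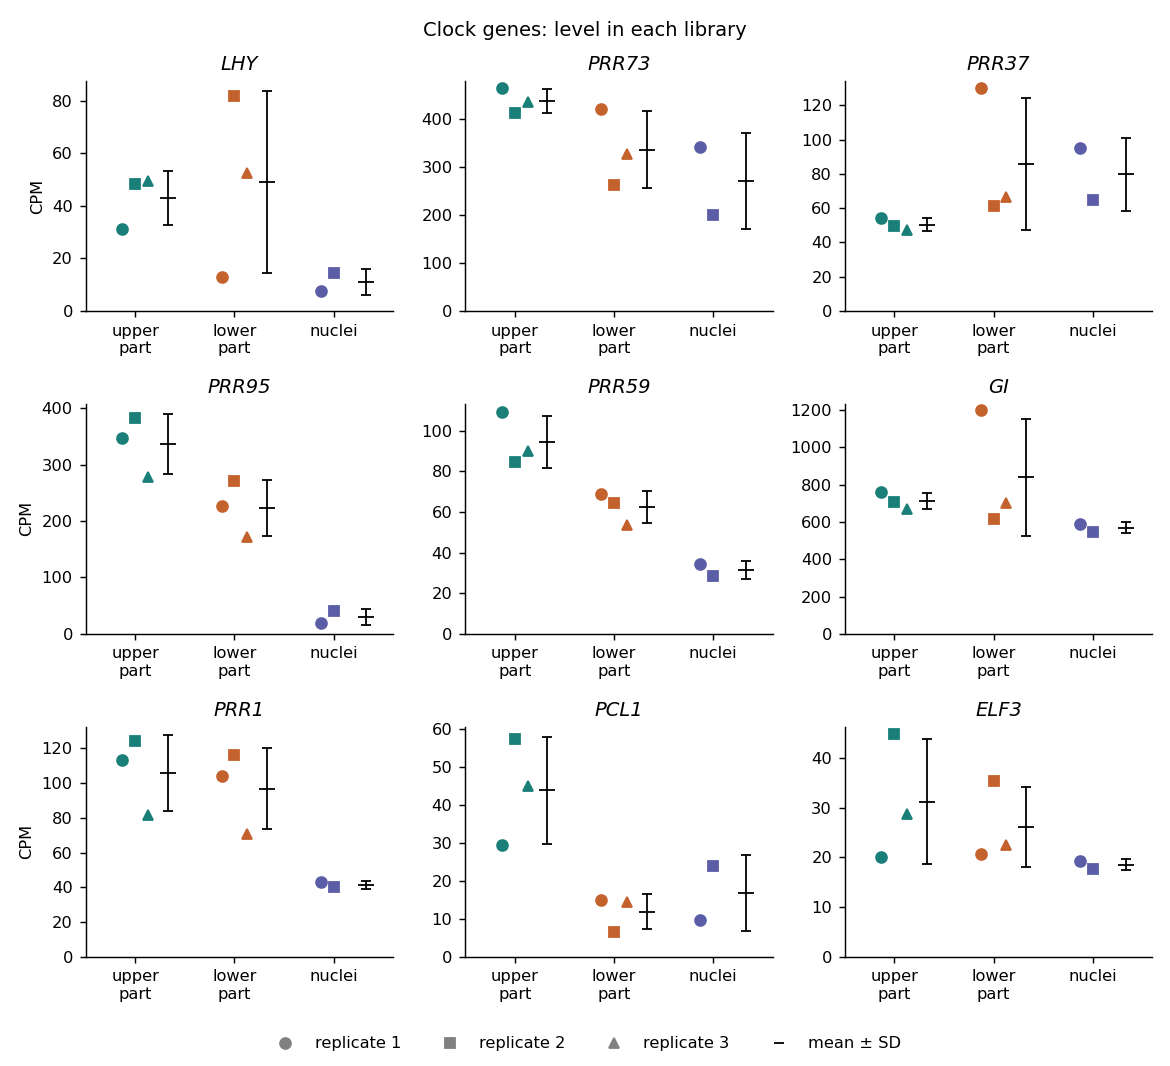
Level of each clock gene in CPM (y axis, linear, from 0) in the upper part, the lower part and nuclei. Each symbol is a library, its shape gives the replicate number, and bars are mean ± SD. PCL1 lies at 29.4 to 57.5 CPM in the upper and 6.58 to 14.9 CPM in the lower part, and PRR95 falls to 19.5 and 40.4 CPM in nuclei.

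The comparison of the upper with the lower part asked whether clock transcripts differ along the pistil. PCL1 showed the widest separation, with a fitted level 3.73-fold higher in the upper part, while the other clock genes differed by 1.67-fold or less in the fit. PRR95 and PRR59 were higher in every upper library than in any lower library, and PRR37 was lower. None of the 9 was called by edgeR's quasi-likelihood test, where a call needed both a Benjamini-Hochberg adjusted p below 0.05 and a change of 1 or more on the log2 scale, and 0.814% of the 29848 genes tested were called. At an unadjusted p under 0.05 there was 1 clock gene, PCL1, against 13.9% of all genes. DESeq2 called 1, again PCL1, against 5.46% of all genes, so neither count sets the clock genes apart. The median log2 fold change, upper over lower, was 0.28 over the 9 genes and -0.02 over all genes tested. On simulated counts the edgeR fit recovered 6 of 50 changes of 4-fold. The absence of calls in it therefore says little about changes of that size or smaller.

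PCL1 encodes a GARP-type DNA-binding protein. In replicates 1, 2 and 3 it had 29.4, 57.5 and 44.9 CPM in the upper part and 14.9, 6.58 and 14.3 CPM in the lower part. The lowest upper library thus lay above the highest lower library. Its fitted log2 ratio was 1.90 (SE 0.42, edgeR adjusted p = 0.107). Within replicate numbers 1, 2 and 3 it was 1.97-, 8.74- and 3.13-fold higher in the upper part, so all 3 pairs went the same way but by very different amounts. With the replicate number as a block the ratio was 1.92 on the log2 scale (SE 0.43, edgeR adjusted p = 0.0503), still short of a call. The block called 0 of the 9 clock genes and 8.14% of all genes. DESeq2 gave an adjusted p of 0.00394, in a test that called 4.08% of all genes higher. The adjusted p ran from 0.00394 to 0.335 over the alternatives, and the log2 fold change from 1.32 to 2.43.

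PRR95 and PRR59, pseudo-response regulators of the daytime, were both higher in the upper part by about the same factor. PRR95 had 347, 382 and 278 CPM in the upper and 227, 271 and 171 CPM in the lower replicates, with a log2 ratio of 0.61 (SE 0.39, edgeR adjusted p = 0.495). The gap between the lowest upper and the highest lower library was narrow. PRR59 had 109, 84.6 and 89.9 CPM in the upper and 69.0, 64.3 and 53.6 CPM in the lower replicates (log2 fold change 0.62, SE 0.27, edgeR adjusted p = 0.361). Its pairs were 1.58-, 1.32- and 1.68-fold apart, which makes it one of the steadier differences among the clock genes, yet below the fold a call needed. With the block its adjusted p was 0.0893 (edgeR).

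PRR37, a pseudo-response regulator that delays heading under long days, went the other way. It had 54.3, 49.6 and 47.4 CPM in the upper and 130, 61.2 and 66.2 CPM in the lower replicates. The groups did not overlap, but the lower mean of 85.8 ± 38.3 CPM (SD, n = 3) rested largely on lower replicate 1. The fitted log2 ratio was -0.74 (SE 0.35, edgeR adjusted p = 0.393), and -0.34 without lower replicate 1. PRR73, its close relative, overlapped between the parts, with 464, 413 and 434 CPM in the upper and 420, 262 and 327 CPM in the lower replicates (log2 fold change 0.40, SE 0.41, edgeR adjusted p = 0.653). Thus 4 of the 9 clock genes had groups that did not overlap, against 20.5% of all genes tested. Of these, 3 were higher in the upper part, against 9.93% of all genes, and 1 lower, against 10.6%. For 6 of the 9, all 3 pairs went the same way, which held for 59.0% of all genes.

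LHY, GI, PRR1 and ELF3 gave no separation of the parts. LHY had 31.0, 48.2 and 49.4 CPM in the upper and 13.1, 81.8 and 52.6 CPM in the lower replicates, so the lower libraries enclosed the upper ones. Its log2 ratio of -0.18 (SE 0.59, edgeR adjusted p = 0.899) came from pairs that disagreed: it was 2.37-fold higher in the upper part at number 1, 1.70-fold lower at number 2 and 1.06-fold lower at number 3. GI, a large protein that links the clock to flowering, had 761, 707 and 672 CPM in the upper and 1199, 616 and 701 CPM in the lower replicates (log2 fold change -0.21, SE 0.51, edgeR adjusted p = 0.863). Apart from lower replicate 1, its libraries lay within a narrow band. PRR1, the rice counterpart of Arabidopsis TOC1, had 113, 124 and 81.6 CPM in the upper and 104, 116 and 70.8 CPM in the lower replicates (log2 fold change 0.16, SE 0.33, edgeR adjusted p = 0.835). Its parts followed each other number by number, 1.07- to 1.15-fold apart. ELF3 had 20.0, 44.9 and 28.7 CPM in the upper and 20.6, 35.3 and 22.5 CPM in the lower replicates (log2 fold change 0.28, SE 0.38, edgeR adjusted p = 0.744).

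**Figure D2:**
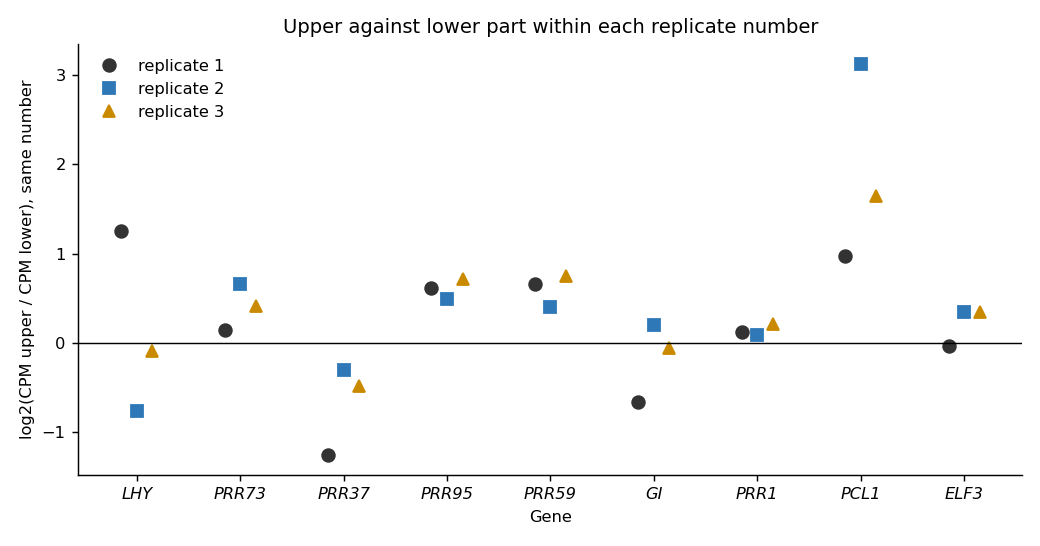
Difference between upper and lower part for each clock gene within each replicate number, as log2 of the CPM ratio (y axis). Each symbol is a pair of libraries with the same number. PCL1 reaches 3.13 at number 2, PRR37 lies below 0 at all 3 numbers, and LHY runs from 1.25 at number 1 to -0.76 at number 2.

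The replicate numbers were then compared, since same-numbered libraries of both parts may share a time of collection. In the fit of both parts together, LHY and ELF3 had the largest differences between numbers among the clock genes, and each was at its lowest at number 1 in the upper and in the lower part. Within the parts the order differed: PCL1 moved by 0.97 from number 1 to number 2 in the upper part, on the log2 scale, where the largest step of LHY was 0.67. In the fit with part and number, LHY was higher at number 2 than at number 1 by 1.60 and at number 3 by 1.25 on the log2 scale. ELF3 was higher at number 2 than at number 1 by 0.98 on the same scale. Neither was called in edgeR's joint F test of the number (adjusted p = 0.146 for LHY and 0.0886 for ELF3). That test called 0 of the 29848 genes, which is 0% and includes the clock genes, although 33.6% of all genes and 2 of the 9 clock genes (LHY and ELF3) had an unadjusted p under 0.05. DESeq2 called 23.0% of all genes and 0 of the 9, with adjusted p-values of 0.0619 for LHY and 0.0591 for ELF3. The call count therefore depended on the tool for the whole table, while with every library included the clock genes were called by neither tool. The joint F test recovered none of the changes put into simulated counts. The spread of those counts was estimated with part alone, so variation between numbers entered it as noise. The absence of calls in the test says nothing about how steady the clock genes are. Without upper replicate 1 the log2 difference of LHY, number 2 over number 1, was 2.52. Without lower replicate 1 that of ELF3 was 1.16. Each of these fits leaves number 1 with 1 library, so only the size of the difference is given. Over the settings tried the adjusted p ran up to 0.363 for LHY and 0.391 for ELF3. For LHY the same log2 difference was 0.81 without lower replicate 1 and 0.90 without lower replicate 2.

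The number moved LHY far more in the lower part than in the upper. Number 2 was 6.25-fold above number 1 in the lower part and 1.55-fold in the upper part, and number 3 was 4.02-fold and 1.59-fold above number 1. With 1 library for each part and number, this difference was not tested. PRR37 and GI changed in the opposite sense, with number 1 highest in both parts. Number 1 was also highest in both parts for PRR73 and PRR59. In the lower part, number 1 exceeded number 2 by 2.12-fold for PRR37 and 1.95-fold for GI, and in the upper part by 1.09- and 1.08-fold. Lower replicate 1 thus held the lowest LHY of the whole-cell libraries and the highest PRR37 and GI.

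Setting LHY against GI puts a dawn gene beside an evening gene. There were 4.08, 6.82 and 7.36 CPM of LHY for each 100 CPM of GI in the upper part at numbers 1, 2 and 3, and 1.09, 13.3 and 7.50 in the lower part. Number 1 had the lowest ratio in both parts, and number 3 gave nearly the same ratio in both. The nuclei, at 1.26 and 2.62, lay between lower replicate 1 and all other whole-cell libraries.

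PRR95 and PRR1 were highest at number 2 and lowest at number 3 in both parts. PRR1 at number 3 was 1.52-fold below number 2 in the upper part and 1.64-fold below in the lower part, and PRR95 1.37- and 1.59-fold. Over the 9 genes, 4 (PRR73, PRR95, PRR1 and ELF3) had the same order of the 3 numbers in both parts, against 36.7% of all genes tested. The largest log2 difference between numbers had a median of 0.55 over the clock genes and 0.87 over all genes tested. From the lowest to the highest whole-cell library, PCL1 spanned 8.74-fold and LHY 6.25-fold, wider than 90.1% and 86.9% of the 17413 loci with a mean of at least 10 CPM and no library at 0. PRR37 spanned 2.74-fold, above the median of 2.39-fold over those loci. The rest spanned less than that median: PRR1 1.75-, PRR73 1.77-, GI 1.95-, PRR59 2.03-, PRR95 2.24- and ELF3 2.25-fold.

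The 3 loci taken as green-tissue markers followed the order of LHY over the numbers in the lower part but not in the upper part. They summed to 146, 347 and 128 CPM in the upper and 122, 711 and 146 CPM in the lower replicates, with the highest sum at number 2 in both parts, and to 32.4 and 87.6 CPM in nuclei. None of the 3 was at 0 in any library. Lower replicate 2 was the highest library both for this sum and for LHY. In plants, such genes follow light and the clock as well as tissue, and their part in the LHY values was not tested.

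**Figure D3:**
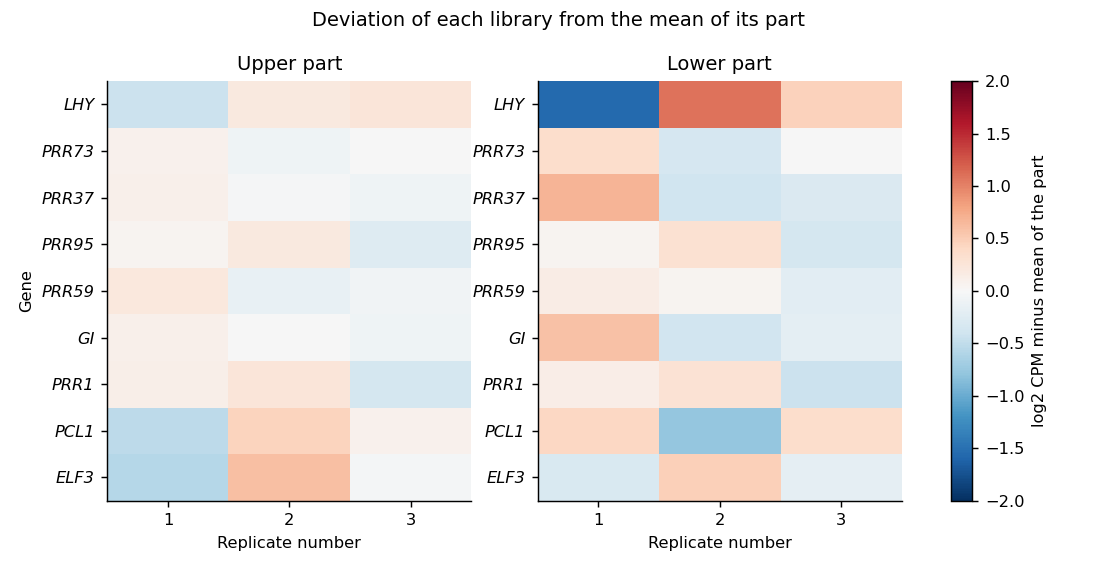
Deviation of each library from the mean of its part, as log2 CPM (colour), for each clock gene (rows) and replicate number (columns), in the upper and the lower part. LHY, at 13.1, 81.8 and 52.6 CPM in the lower part, has the strongest colours, PRR1 and PRR95 show the same pattern in both parts, and PCL1 has opposite colours at numbers 1 and 2.

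The loci with the whole-cell profile most like that of LHY, by root-mean-square difference of centred log2 values over 6 libraries among 17424 loci with a mean of at least 10 CPM, were Os03g0225100 (0.26), Os01g0313300 (0.27) and Os10g0497700 (0.29). In Os03g0225100 the values were 11.8, 20.3 and 20.4 CPM in the upper and 5.37, 22.3 and 15.4 CPM in the lower replicates, with the same low value in lower replicate 1. Those 3 loci did not share the low level of LHY in nuclei, where they had 38.2 to 345 CPM. For GI the nearest were Os05g0196400 (0.05), Os05g0156800 (0.06) and Os12g0141900 (0.07), each highest in lower replicate 1. Among the clock genes themselves, the closest profiles were those of PRR59 with PRR73 and with PRR95 (0.22 each), PRR95 with PRR1 (0.24) and PRR37 with GI (0.26). The most distant were LHY and PCL1 (1.39). These distances describe 6 libraries in 3 pairs that deviate together.

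The comparison of nuclei with the mean of the whole-cell parts gave the only clock genes called by edgeR with every library included. PRR95, LHY, PRR59 and PRR1 were lower in nuclei, by 8.94-, 4.14-, 2.39- and 2.39-fold. PRR37, GI, PRR73, PCL1 and ELF3 were not called and lay within 1.51-fold of the mean of the parts. Thus 4 of 9 were called lower, against 8.76% of the 31858 genes tested, and 0 higher, against 14.1%. DESeq2 called the same 4 genes lower, against 13.9% of all genes. At an unadjusted p under 0.05 edgeR gave 0 clock genes higher, against 6635 of the 31858 genes tested. DESeq2 also called 0 clock genes higher, against 5224 of all genes. The median log2 fold change, nuclei over parts, was -0.60 over the 9 genes and -0.03 over all genes tested. On simulated counts the edgeR fit of nuclei recovered 0 of 50 changes of 2-fold, so the genes not called may still differ. Nuclei were prepared with a SMART-Seq kit and the parts with a directional kit, and what belongs to the kit cannot be told apart from what belongs to the compartment. The labels give no hour of collection for nuclei or parts, so a difference in hour cannot be told apart from these either. Sums of the green-tissue marker loci were also lower in nuclei, and their part in these differences was not tested.

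PRR95 had 19.5 and 40.4 CPM in nuclei replicates 1 and 2, from 218 and 327 counts, whereas the whole-cell mean was 279 ± 77.1 CPM (SD, n = 6). Both nuclei libraries lay far below the lowest whole-cell library, at 171 CPM. The fitted log2 ratio was -3.16 (SE 0.55, edgeR adjusted p = 0.00415). PRR95 kept its call in all 15 alternatives run, with log2 fold changes from -2.73 to -3.79 and an adjusted p of at most 0.0373. Its log2 fold change was -3.55 against the upper part alone and -2.86 against the lower part alone. It was -2.73 without nuclei replicate 1, and -3.79 without nuclei replicate 2.

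PRR59 and PRR1 were lower in nuclei by the same factor. PRR59 had 34.5 and 28.4 CPM in nuclei and 53.6 to 109 CPM in the whole-cell libraries (log2 fold change -1.26, SE 0.33, edgeR adjusted p = 0.0249). PRR1 had 43.1 and 39.9 CPM in nuclei and 70.8 to 124 CPM in the whole-cell libraries (log2 fold change -1.26, SE 0.38, edgeR adjusted p = 0.0398). In both genes every nuclei library lay below every whole-cell library. Against the lower part alone neither was called (log2 fold change -0.96 for PRR59 and -1.20 for PRR1, edgeR adjusted p = 0.167 and 0.131). Against the upper part alone PRR59 was called and PRR1 was not (log2 fold change -1.62 and -1.39, edgeR adjusted p = 0.0304 and 0.061). The calls were less firm than that of PRR95: the adjusted p ran from 0.00183 to 0.167 for PRR59 and from 0.00478 to 0.146 for PRR1 over the alternatives. PRR59 lost its call without upper replicate 3, nuclei replicate 1 or nuclei replicate 2 (edgeR adjusted p = 0.0519, 0.0805 and 0.0873). PRR1 lost it when any 1 upper library was left out, and without lower replicate 1 or either nuclei library (edgeR adjusted p from 0.0544 to 0.146), and its log2 fold change then lay between -1.19 and -1.34.

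LHY had 7.44 and 14.3 CPM in nuclei, from 83 and 116 counts. Lower replicate 1, at 13.1 CPM, lay between the nuclei libraries, so the groups overlapped, while the other 5 whole-cell libraries were at 31.0 CPM or more. The fitted log2 ratio was -2.05 (SE 0.66, edgeR adjusted p = 0.0483), at the edge of the threshold. Size factors in place of TMM ended the call (edgeR adjusted p = 0.0508), as did leaving out any library other than lower replicate 1 (edgeR adjusted p from 0.0519 to 0.284). LHY was not called against the lower part alone (log2 fold change -2.16, edgeR adjusted p = 0.102). It was called against the upper part alone (log2 fold change -2.04, edgeR adjusted p = 0.0113). Without lower replicate 1 the log2 fold change was -2.37 (edgeR adjusted p = 0.00701). Without nuclei replicate 1 it was -1.65, and without nuclei replicate 2 it was -2.59. The adjusted p ran from 0.00664 to 0.284 over all alternatives.

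GI and ELF3 also had both nuclei libraries below all whole-cell libraries, but by little. GI had 591 and 548 CPM in nuclei against 616 CPM in the lowest whole-cell library (log2 fold change -0.41, SE 0.54, edgeR adjusted p = 0.596). ELF3 had 19.3 and 17.7 CPM against 20.0 CPM (log2 fold change -0.60, SE 0.40, edgeR adjusted p = 0.293). With PRR95, PRR59 and PRR1 this makes 5 of 9 clock genes whose nuclei libraries lay below all others, against 18.2% of all genes tested. PRR73 had 341 and 200 CPM in nuclei (log2 fold change -0.47, SE 0.47, edgeR adjusted p = 0.485). PCL1 had 9.68 and 23.9 CPM, which lay between the levels of the parts for replicate 2 and among the lower libraries for replicate 1 (log2 fold change -0.42, SE 0.48, edgeR adjusted p = 0.540). PRR37, at 94.9 and 64.8 CPM, was the only clock gene with a positive log2 fold change (0.31, SE 0.38, edgeR adjusted p = 0.568).

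**Figure D4:**
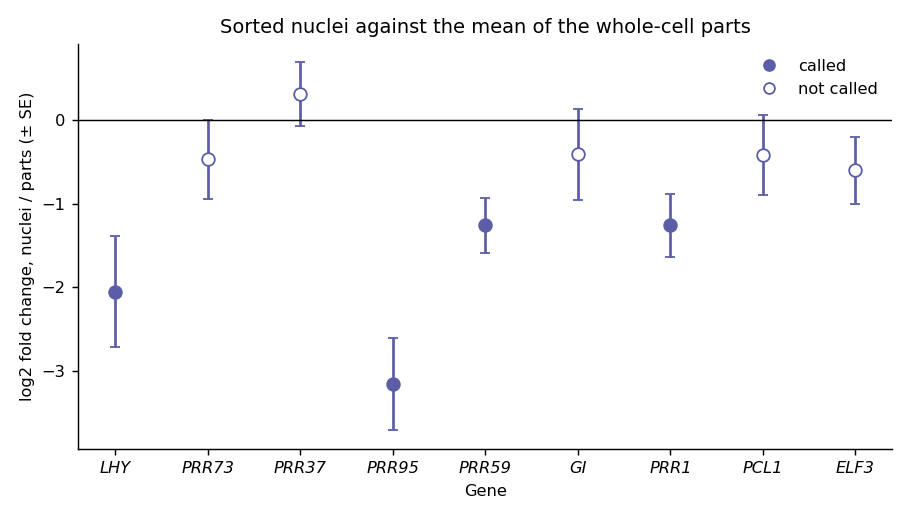
Log2 fold change of sorted nuclei over the mean of the whole-cell parts for each clock gene (points, with SE bars). Filled points were called and open points were not. PRR95 lies lowest at -3.16, followed by LHY at -2.05.

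A further 20 loci were taken as light-input and photoperiod genes. The count table and the reference table pair them with no names, so they are given by locus. Between the parts 15 could be tested, and edgeR called 0 of them in either direction, against 0.814% of all genes. At an unadjusted p under 0.05 there was 1, against 13.9% of all genes. With the replicate block 1 of the 15 was called, in a fit that called 8.14% of all genes. This was Os10g0419200, lower in the upper part (log2 fold change -2.13, SE 0.29, edgeR adjusted p = 0.0199). It had 8.42, 9.73 and 1.45 CPM in the upper and 24.0, 48.6 and 9.41 CPM in the lower replicates. All 3 of its pairs went the same way, although lower replicate 3 and upper replicate 2 were at about the same level. Os07g0261200 had 0 counts in all 8 libraries, which allows at most 0.0760 to 0.371 CPM per library.

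Against the parts, 17 of the 20 could be tested in nuclei, of which 1 was called higher and 2 lower, against 14.1% and 8.76% of all genes tested, so the counts are not a result about this list. Os01g0922800 was higher, with 507 and 284 CPM in nuclei and 98.3 to 191 CPM in the whole-cell libraries (log2 fold change 1.51, SE 0.43, edgeR adjusted p = 0.0315). Os02g0610500 was lower, with 7.79 and 6.68 CPM against 13.7 to 58.3 CPM (log2 fold change -2.17, SE 0.67, edgeR adjusted p = 0.0423). Os04g0452100 was lower as well, with 9.50 and 12.5 CPM against 19.4 to 37.6 CPM (log2 fold change -1.38, SE 0.34, edgeR adjusted p = 0.0191). The median log2 fold change in nuclei was -0.17 over the 17 loci and -0.03 over all genes tested. By replicate number, edgeR's joint F test called 0 of the 15 loci tested and 0% of all genes. Its unadjusted p was under 0.05 for 8 of the 15, against 33.6% of all genes. The largest log2 difference between numbers had a median of 0.78 over these loci and 0.87 over all genes tested.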

How the data were processed

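PolyA RNA of dissected pistils was sequenced. Per the labels' protocols, the parts were made into libraries with a directional NEBNext kit, and nuclei, purified by PI-labelled sorting, with a SMART-Seq kit. The submitters' processing notes name STAR, featureCounts, DESeq2 and the build IRGSP-1.0. Versions, the strand setting and the treatment of reads that match several places are not given in the sources used here. What the authors deposited are raw counts per feature, without normalization. Each of the 8 columns carries the name of its sample, and 0 columns were unused.

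CPM values and fits were computed here with edgeR 4.0.16 in R 4.3.3 (TMM, edgeR's filter on low counts, quasi-likelihood test, Benjamini-Hochberg adjustment over all genes tested). Parts were compared in the 6 whole-cell libraries. Nuclei were compared with the mean of the parts in all 8 libraries. The replicate number was tested jointly in a fit with part. Levels use TMM over all 8 libraries. Each fit used its own scaling. Alternatives were DESeq2 1.42.0, other scalings, no filter, a replicate block and leaving out libraries. The fits were tested on simulated data, with 50 genes changed at each of 2-, 4-, 8- and 16-fold. The joint test of the replicate number recovered none of them. At 2-fold the fits of the parts and of nuclei each recovered 0 of 50. At 4-fold they recovered 6 and 14 of 50, and at 8-fold 27 and 42. The spread of the simulated counts was estimated without the replicate number. Floors (3 counts) cover counting error alone, whereas SD and SE include the spread among libraries.

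Replicate numbers come from the labels. Deviations from the group means correlated across genes at 0.362, 0.679 and 0.660 for numbers 1, 2 and 3, and at most at 0.0539 for unlike numbers. Deviations from a group's own mean cancel out, so high values for like numbers lower those for unlike numbers. The numbers were taken as pairs in the replicate block and in the ratios within numbers. The main fit of the parts left the pairing out.

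The members and lists were chosen with earlier results of these data known. Gene names come from the member list. Of the 9 symbols, 7 also occur as synonyms in the RefSeq table of another assembly on the chromosome that the locus identifier gives. Named genes were the 9 members, list loci with a call, and for LHY and GI the 3 loci with the most similar profile. Sequences were not used here. The single-nucleus libraries of the study were not analysed here.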

Additional observations from a re-analysis of the deposited data

Results flagged for a closer look

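PCL1 went opposite ways in the parts when replicate numbers were compared. From number 1 to number 2 it was 1.96-fold higher in the upper part and 2.27-fold lower in the lower part, a difference of 2.15 on the log2 scale. From number 2 to number 3 it was 1.28-fold lower in the upper and 2.17-fold higher in the lower part, a difference of -1.48. Each step rests on 1 library per part and number, and neither difference was tested. Lower replicate 2, at 6.58 CPM from 260 counts, enters both.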

How the results depend on the processing

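Between the parts, 243 genes and 0 clock genes were called. DESeq2 called 1629 genes and 1 clock gene, PCL1. With the replicate block 2431 genes were called, with 0 clock genes, and without pair 1, 2 or 3 the block gave 3549, 98 and 2933 genes and 1, 0 and 0 clock genes, the 1 being PCL1. With a library left out and no block, 0 to 958 genes and 0 clock genes were called; for the 0 genes, without lower replicate 1, edgeR gave 1589 genes higher and 842 genes lower at p under 0.05 before adjustment. Library size as the only scaling shifted the median over all genes to -0.34 (log2) and turned PRR1 to -0.16 and ELF3 to -0.04. LHY turned to 0.14 with the replicate block, and to 0.58 and 0.20 with the block and without pair 2 or 3; GI turned to 0.12 with the block and without pair 1. With a library left out, LHY ran from -0.65 to 0.39, GI from -0.44 to 0.11, PRR1 from -0.04 to 0.32 and ELF3 from -0.09 to 0.52.

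In nuclei, 7293 genes and 4 clock genes were called. Against the lower part alone there were 3455 genes and 1 clock gene, PRR95, and PRR37 turned to -0.08 and PCL1 to 0.52. With a library left out, 2378 to 6889 genes and 1 to 3 clock genes were called, and PCL1 ran from -1.23 to 0.09. Without a nuclei replicate the lone library is assumed to vary like the other groups. With all libraries in the fit, the replicate block changed no clock gene's call between the parts or in nuclei. For nuclei this says little, since pairing was checked between the parts only and the labels do not tie nuclei numbers to part numbers.

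For the replicate number, DESeq2 called 6877 genes against 0 by edgeR. With a library left out, 0 to 6274 genes and 0 to 1 clock genes were called, and the largest difference of PCL1, number 3 over number 2, ran from -0.50 to 1.30. Single contrasts between numbers, added after the data were seen, called 0 genes, with 2033 to 5289 genes in each direction at an unadjusted p under 0.05. The causes were not tested. Of the 3 loci most like LHY and like GI, at least 2 stayed with other pseudocounts or a lower minimum level.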
